A study of Mus musculus with 12 samples.

Results

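Nnat, which encodes the small membrane protein neuronatin, was followed together with 9 other imprinted genes tied to growth: Igf2, H19, Dlk1, Peg3, Peg10, Mest, Grb10, Plagl1 and Igf2r. Nnat was selected on its high values in red-only cells, so its levels are given here as a description with no test. A gene was measured through its probe sets, groups of short probes for one transcript, that the platform annotation gives to that gene alone. Of the 10 genes, 9 had such a probe set, 20 in all, among 18193 genes and 34945 probe sets of the array. The single probe set of H19 is annotated to 2 genes, H19 and the microRNA gene Mir675 inside it, so no value is given for H19. Where a gene has several, the brightest on average over all 12 arrays stands for it.

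RNA came from mouse embryonic stem cells differentiated by hanging drops into embryoid bodies, dissociated at day 6 and sorted by flow cytometry on 2 transgenic reporters. The red reporter (dsRed) marks the second heart field, the progenitors of the right ventricle and outflow tract, and the green reporter (eGFP) is driven by a cardiac-specific enhancer. The 4 populations were double-positive (red and green), red-only, green-only and lastly double-negative cells, and all carry both transgenes whether or not they express them. Each was measured on 3 arrays, with 1 array per experiment (A, B, C). It is not stated in the labels whether the experiments were separate cultures or how many clones the reporter line stands for, so p-values measure only the spread between these arrays. Array medians lay between 6.29 and 6.73 intensity units. A sum over 6 cardiac marker genes ran from 12612 to 15516 intensity units in double-positive, 2487 to 3732 in red-only cells, 7037 to 8741 in green-only cells and 286 to 443 in double-negative cells. A sum over 6 pluripotency markers was at most 148 units in the reporter-positive arrays and at least 1427 units in the double-negative arrays, and a sum over 5 blood markers was at most 142 units against at least 1068 units.

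Imprinted genes are expressed mainly from the copy of one parent, because methylation of DNA at a control region was set differently in egg and sperm. Nnat, Igf2, Dlk1, Peg3, Peg10, Mest and Plagl1 are expressed from the paternal copy, and H19, Igf2r and, in most tissues, Grb10 from the maternal copy. As a group they are known for setting fetal and placental growth, with Igf2 as a growth factor and Igf2r and Grb10 as brakes on its signal. The arrays measured transcript level and not which parental copy it came from, and DNA methylation was not measured.

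The bases before the start site are shown for the 4 genes whose highest and lowest populations lay furthest apart, since CG dinucleotides are the sites at which such regions can be methylated. These are the RefSeq sequences on GRCm38.p6, read in the direction of transcription, with each CG in capitals. They lie at chr2:157559878-157560077 on the plus strand for Nnat, chr12:109452623-109452822 on the plus strand for Dlk1, chr10:13090632-13090831 on the plus strand for Plagl1 and chr17:12769707-12769906 on the minus strand for Igf2r.
Nnat upstream 200 bases: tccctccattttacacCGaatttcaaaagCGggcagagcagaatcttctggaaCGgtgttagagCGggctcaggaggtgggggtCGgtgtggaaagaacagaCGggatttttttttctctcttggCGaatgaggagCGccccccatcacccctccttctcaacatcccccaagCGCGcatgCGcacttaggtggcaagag
Dlk1 upstream 200 bases: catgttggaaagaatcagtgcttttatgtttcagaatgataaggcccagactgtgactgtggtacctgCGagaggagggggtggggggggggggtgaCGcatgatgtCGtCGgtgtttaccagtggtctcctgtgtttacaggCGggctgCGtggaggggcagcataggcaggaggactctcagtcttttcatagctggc
Plagl1 upstream 200 bases: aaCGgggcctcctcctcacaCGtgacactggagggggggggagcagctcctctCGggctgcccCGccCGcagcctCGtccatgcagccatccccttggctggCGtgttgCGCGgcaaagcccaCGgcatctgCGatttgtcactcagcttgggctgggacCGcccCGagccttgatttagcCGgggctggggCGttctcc
Igf2r upstream 200 bases: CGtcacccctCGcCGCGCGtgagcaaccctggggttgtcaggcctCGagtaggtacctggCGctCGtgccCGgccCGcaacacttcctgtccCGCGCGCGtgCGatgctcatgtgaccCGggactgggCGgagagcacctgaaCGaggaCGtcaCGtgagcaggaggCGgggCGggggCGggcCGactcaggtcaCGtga
The Igf2r window holds 25 CG dinucleotides, the Plagl1 window 15, the Nnat window 11 and the Dlk1 window 6, against a median of 5 and quartiles of 2 and 13 in 32851 mouse windows of the same length. The GC box GGGCGG, searched on both strands, occurs 3 times before Igf2r, 2 times before Plagl1 and in neither of the other windows, and in 31.0% of all windows. Neither CCAAT nor TATAAA, on either strand, was found in these 4 windows, while 29.3% and 9.96% of all windows hold them.

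Nnat had intensities of 262, 330 and 343 on the double-positive arrays of experiments A, B and C, 2246, 1613 and 1413 on the red-only arrays, 504, 404 and 422 on the green-only arrays and 685, 812 and 764 on the double-negative arrays. Red-only cells were highest, double-negative cells next, then green-only and then double-positive cells, and no 2 neighbours in this order overlapped. The means were 312 ± 43.6 in double-positive, 1758 ± 435 in red-only cells, 443 ± 53.2 in green-only cells and 754 ± 63.8 in double-negative cells (SD, n = 3 each). On the scale of log2(intensity + 4.10), red-only cells lay above double-negative cells by 1.19 and above green-only cells by 1.96, and double-positive cells lay below red-only cells, at -2.46. Double-positive cells were at -1.27 and green-only cells at -0.76 relative to double-negative cells. The red-only excess over double-negative cells was 1.71 in experiment A, 0.99 in B and 0.88 in C. Nnat has 1 probe set on the array. It lies within Blcap, itself an imprinted gene, whose probe set averaged 48.8 ± 8.63, 43.1 ± 3.36, 38.1 ± 4.63 and 33.0 ± 3.65 in the double-positive, the red-only, the green-only and the double-negative population (SD, n = 3 each). Blcap was thus highest on average in double-positive cells, where Nnat was lowest. It was called in double-positive over double-negative cells, at 0.51 (limma adjusted p 0.00697), but not in double-positive over red-only or green-only cells.

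**Figure D1:**
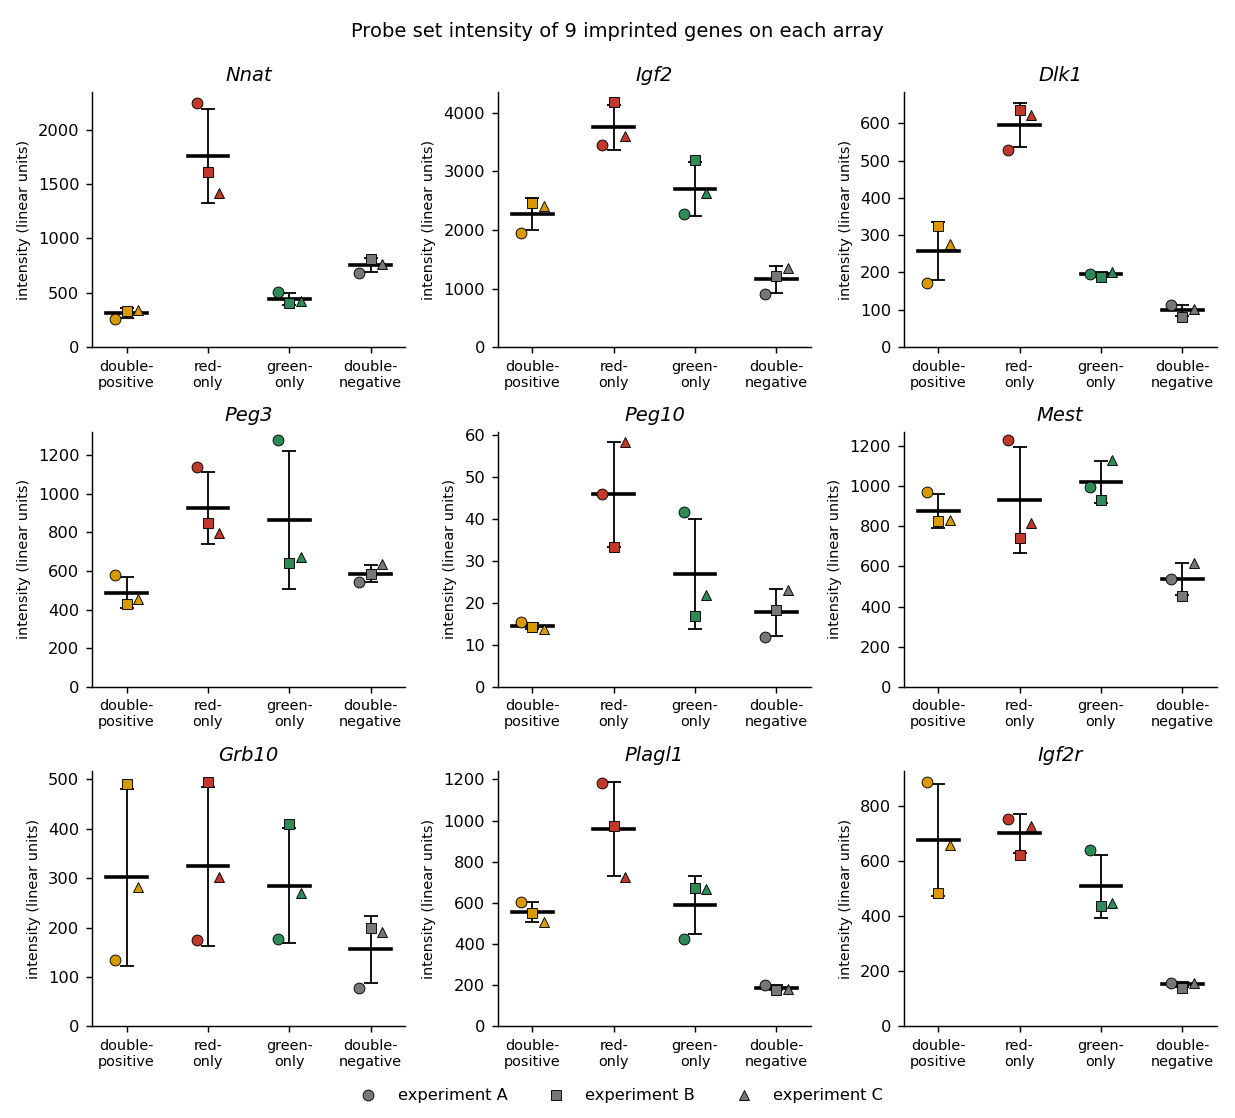
Probe set intensity in linear units (vertical axis from 0) of 9 imprinted genes on each of 12 arrays, by population, with the marker shape giving the experiment; horizontal bars are means and vertical bars SD of 3 arrays. Nnat is high in red-only and low in double-positive cells, Igf2r and Plagl1 are lowest in double-negative cells, and Grb10 differs between experiments.

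Most of the other 8 measured genes were lowest in double-negative cells and highest in red-only cells. By mean log2 value, 7 of the 8 were highest in red-only cells, where 21.0% of the 13698 genes tested were highest, and Mest was highest in green-only cells. For Peg3, Peg10, Grb10 and Igf2r the red-only arrays overlapped those of the next population. The second Peg3 probe set was highest on average in green-only cells, at 780 units against 766 in red-only cells. Of the other Grb10 probe sets, the second was highest in double-positive and the third in green-only cells. The second probe sets of Igf2, Plagl1 and Igf2r were highest in red-only cells, as were the third of Peg3 and Plagl1. Double-negative cells were lowest for 6 of the 8, against 31.1% of all genes, and double-positive cells for Peg3 and Peg10. All 8 passed the filter on low values, which used the mean over all arrays. In limma fits to all genes with Benjamini-Hochberg adjustment and a threshold of 0.05, 5 of the 8 rose in double-positive over double-negative cells and 0 fell, where 31.5% of all genes were called, 13.9% rising and 17.6% falling. In red-only cells 6 of the 8 rose over double-negative cells and 0 fell, where 23.6% of all genes were called, 10.9% rising and 12.7% falling. In green-only cells 5 of the 8 rose and 0 fell, where 20.7% of all genes were called, 9.33% rising and 11.4% falling. With the experiment as a replicate block 6, 8 and 6 of the 8 rose in the double-positive, the red-only and the green-only population and 0 fell. The shares over all genes given here are from the fit without the block, so the block counts have none beside them. The median log2 fold change of the 8 genes was 0.93, 1.45 and 0.95 in these 3 comparisons, against -0.01, -0.02 and -0.01 over all genes. The 3 comparisons share the same double-negative arrays. In sorted bulk RNA, more cells of a type and more RNA per cell cannot be told apart, and the pluripotency and blood markers given above move with the same comparisons; their part in these results was not tested.

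**Figure D2:**
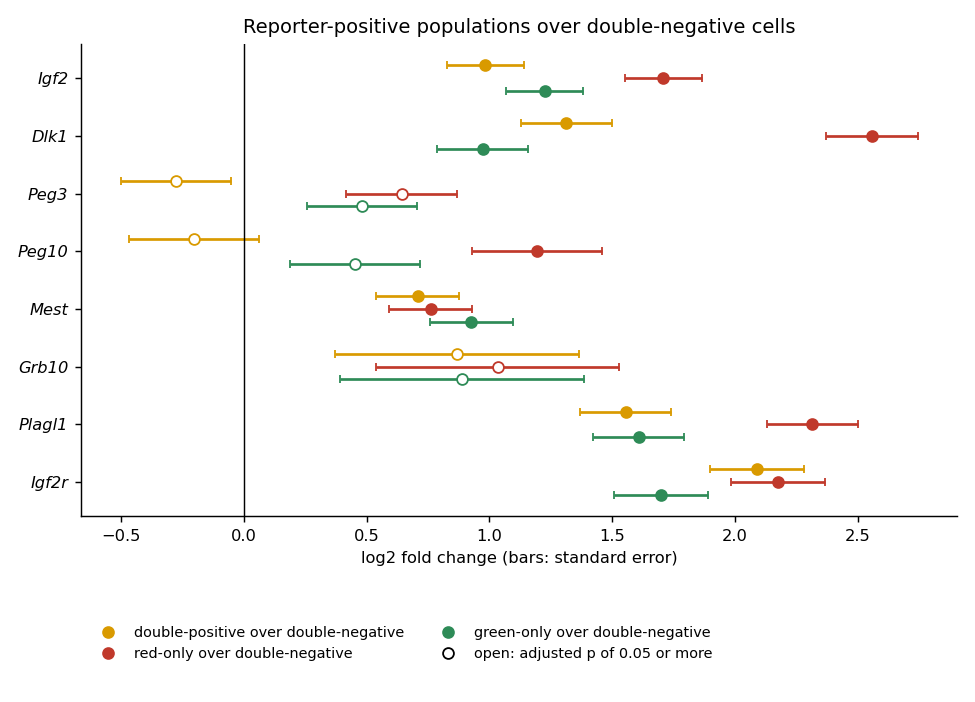
Log2 fold change (horizontal axis) of 8 imprinted genes in the double-positive, the red-only and the green-only population over double-negative cells, with standard errors as bars and open circles for an adjusted p of 0.05 or more. All points of Igf2, Dlk1, Mest, Plagl1 and Igf2r are filled and above 0, while the double-positive points of Peg3 and Peg10 lie at -0.28 and -0.20.

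Igf2, the fetal growth factor that signals through the Igf1 receptor and the insulin receptor, had intensities of 1953, 2459 and 2401 in double-positive, 3454, 4188 and 3608 in red-only cells, 2278, 3196 and 2631 in green-only cells and 908, 1215 and 1348 in double-negative cells. Every reporter-positive array lay above every double-negative array, the red-only arrays lay above all others, and double-positive and green-only cells overlapped. Igf2 rose by a log2 fold change of 0.98 (SE 0.16) in double-positive cells, with an adjusted p from limma of 0.000342. It rose by 1.71 in red-only cells, with a limma adjusted p of 8.33e-06, and by 1.23 in green-only cells, with a limma adjusted p of 0.000125, at the same SE. The means correspond to 2271 ± 277, 3750 ± 387, 2702 ± 463 and 1157 ± 226 units in the double-positive, the red-only, the green-only and the double-negative population (SD, n = 3 each). A second Igf2 probe set, between 32.8 and 129 units, rose in the same 3 comparisons by 0.66, 1.60 and 1.08.

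Igf2r encodes the receptor that takes up Igf2 and delivers it to lysosomes, and it also carries lysosomal enzymes. It had intensities of 890, 486 and 659 in double-positive, 754, 622 and 729 in red-only cells, 641, 439 and 448 in green-only cells and 158, 139 and 158 in double-negative cells. The double-negative arrays lay far below the rest, and the 3 reporter-positive populations overlapped each other. The gene rose over double-negative cells by 2.09 in double-positive cells, 2.18 in red-only cells and 1.70 in green-only cells on the log2 scale (SE 0.19 each), or 4.25-, 4.52- and 3.25-fold. The limma adjusted p-values were 3.46e-06, 5.88e-06 and 4.56e-05. A second probe set rose in the same comparisons by 1.79, 1.85 and 1.63, and the last one, shared in the annotation with the overlapping antisense RNA Airn, was not used. Ligand and scavenging receptor were thus both lowest in double-negative cells.

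Grb10, an adaptor protein that binds the insulin and Igf1 receptors and dampens their signal, had intensities of 134, 490 and 282 in double-positive, 176, 496 and 302 in red-only cells, 176, 409 and 269 in green-only cells and 77.1, 198 and 191 in double-negative cells. Within each experiment the double-negative array was the lowest of the 4, while the populations overlapped, and experiment A was low throughout. Over double-negative cells the log2 fold changes were 0.87, 1.03 and 0.89 in the double-positive, the red-only and the green-only population (SE 0.50 each). None passed the threshold, with limma adjusted p-values of 0.227, 0.166 and 0.252. With the experiment as a replicate block, all 3 passed, with limma adjusted p-values of 0.000399, 0.000177 and 0.000587. Grb10 was higher in 3 of 3 experiments in each comparison, and itself differed between experiments, B lying above A by 1.46 and C above A by 0.92 on the log2 scale (limma adjusted p 0.000807). The other 2 Grb10 probe sets were not called in any of these comparisons without the block.

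**Figure D3:**
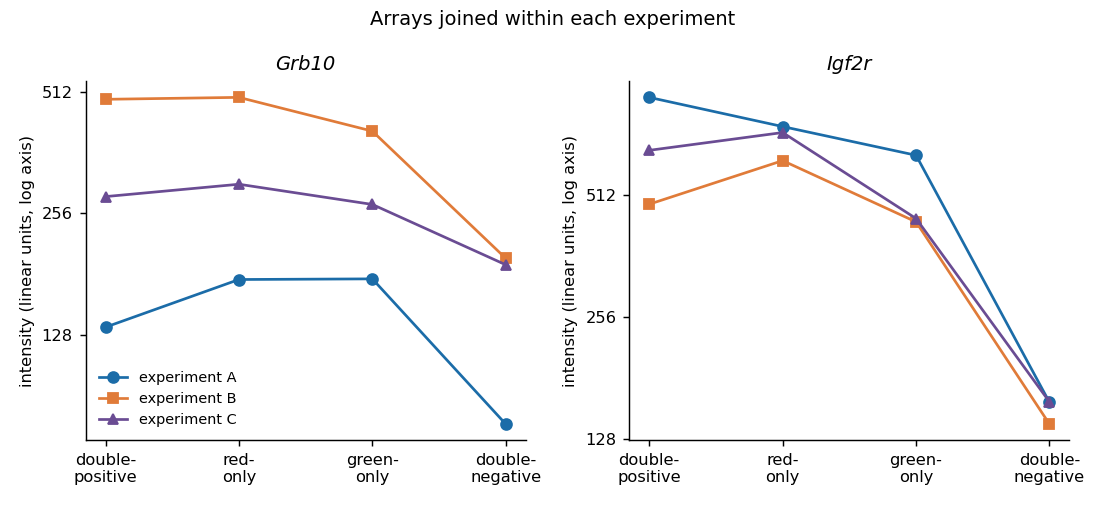
Intensity in linear units on a log axis of Grb10 and Igf2r in the 4 populations, with lines joining the arrays of each experiment. For Grb10 the 3 lines are shifted against each other while each is lowest in double-negative cells; for Igf2r the lines lie close together in double-negative cells, between 139 and 158 units.

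Dlk1 encodes a membrane protein with epidermal growth factor-like repeats, related to Notch ligands and known for holding back fat cell differentiation. It had intensities of 171, 324 and 275 in double-positive, 528, 637 and 622 in red-only cells, 195, 189 and 202 in green-only cells and 113, 81.3 and 101 in double-negative cells. The red-only arrays stood above all 9 others and the double-negative arrays below all others. Dlk1 rose over double-negative cells by 2.56 on the log2 scale in red-only cells (SE 0.19), or 5.89-fold, with a limma adjusted p of 1.49e-06. It rose by 1.31 in double-positive and 0.97 in green-only cells (limma adjusted p 0.000135 and 0.00231). A second Dlk1 probe set, annotated to the gene but at 4.51 to 6.30 units, did not pass the filter.

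Plagl1 encodes a zinc finger transcription factor that, in mice, is known to act on several other imprinted genes. Its intensities were 605, 553 and 509 in double-positive, 1181, 975 and 723 in red-only cells, 424, 672 and 668 in green-only cells and 200, 177 and 181 in double-negative cells. Double-negative cells were lowest and red-only cells highest, without overlap, and double-positive and green-only cells overlapped. It rose by 1.55, 2.31 and 1.61 on the log2 scale in the double-positive, the red-only and the green-only population (SE 0.18 each). The limma adjusted p-values were 3.20e-05, 2.83e-06 and 5.38e-05. A second, dimmer Plagl1 probe set, between 5.73 and 34.3 units, rose in the same 3 comparisons by 0.60, 1.43 and 0.61, and the last one, between 5.05 and 8.96 units, was called in none of them.

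Mest, a member of the alpha/beta hydrolase fold family known as a marker of early mesoderm, had intensities of 973, 828 and 831 in double-positive, 1234, 742 and 816 in red-only cells, 998, 933 and 1134 in green-only cells and 540, 455 and 619 in double-negative cells. The 3 reporter-positive populations overlapped each other and lay above double-negative cells. The increases were 0.71 in double-positive cells, 0.76 in red-only cells and 0.93 in green-only cells on the log2 scale (SE 0.17 each), with limma adjusted p-values of 0.00570, 0.00504 and 0.00167. These were the smallest increases among the 5 genes called in all 3 comparisons.

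Peg3, which encodes a large zinc finger protein, and Peg10, derived from a retrotransposon and required for the placenta, had another order of levels. Peg3 had intensities of 578, 430 and 453 in double-positive, 1141, 848 and 795 in red-only cells, 1278, 640 and 672 in green-only cells and 543, 582 and 634 in double-negative cells. Peg10 had intensities of 15.3, 14.3 and 13.8 in double-positive, 45.9, 33.2 and 58.3 in red-only cells, 41.7, 16.9 and 21.8 in green-only cells and 11.9, 18.3 and 23.0 in double-negative cells. For both genes double-positive cells overlapped double-negative cells, and experiment A's green-only array lay well above the other green-only arrays. Peg10 rose by 1.19 on the log2 scale in red-only over double-negative cells (SE 0.26), with a limma adjusted p of 0.00504. Peg3 was higher there by 0.64 (SE 0.22), with a limma adjusted p of 0.0553 and, with the experiment as a replicate block, of 0.0129. In green-only over double-negative cells the experiments A, B and C gave differences of 1.23, 0.14 and 0.08 for Peg3 and 1.52, -0.10 and -0.07 for Peg10. The other 2 Peg3 probe sets that passed the filter had the same order of double-positive below double-negative cells, at -0.20 and -0.27, and a further pair lay under 3.39 units.

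Between the reporter-positive populations, the members differed mainly by being lower in double-positive than in red-only cells. Of the 8 genes, 5 fell in double-positive relative to red-only cells and 0 rose, where 12.1% of all genes were called, 6.15% falling and 5.94% rising. The log2 fold changes were -1.40 for Peg10 (SE 0.26, limma adjusted p 0.00369), -1.24 for Dlk1 (SE 0.19, limma adjusted p 0.000759) and -0.72 for Igf2 (SE 0.16, limma adjusted p 0.00856). They were -0.92 for Peg3 (SE 0.22, limma adjusted p 0.0169) and -0.76 for Plagl1 (SE 0.18, limma adjusted p 0.0163). For these 5 genes every double-positive array lay below every red-only array, as it did for 16.6% of all genes. The calls of Peg3 and Plagl1 were lost when any of several arrays was left out. Without red-only array A, the limma adjusted p was 0.0807 for Peg3 and 0.0775 for Plagl1, and without double-positive array B it was 0.0683 and 0.0501. Without double-positive array C it was 0.0570 for Peg3 and 0.0612 for Plagl1, and without red-only array B it was 0.0574 for Plagl1. The other 3 members were not called, with 95% intervals of the log2 fold change of -0.50 to 0.33 for Igf2r, -0.42 to 0.31 for Mest and -1.24 to 0.91 for Grb10.

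In double-positive over green-only cells 0 of the 8 members were called by limma, where 5.62% of all genes were. The lowest adjusted p-values were those of Peg3, at -0.76 on the log2 scale (limma adjusted p 0.0704, and 0.0153 with the experiment as a replicate block), and Peg10, at -0.66 (limma adjusted p 0.194). Without double-positive array A, Dlk1 was called at 0.60 (limma adjusted p 0.0345), and without green-only array B, Peg3 was called at -0.94 (limma adjusted p 0.0389). The 95% intervals were -0.06 to 0.74 for Dlk1, -0.58 to 0.10 for Igf2, -0.02 to 0.80 for Igf2r, -0.58 to 0.15 for Mest, -0.45 to 0.35 for Plagl1 and -1.09 to 1.05 for Grb10. In red-only over green-only cells 1 of the 8 rose, where 3.08% of all genes were called and 1.32% rose. It was Dlk1, at 1.58 (SE 0.19, limma adjusted p 0.000559) and higher in 3 of 3 experiments. With the experiment as a replicate block 4 of the 8 were called, where 789 of all 13698 genes were, against 422 without the block. The block added Igf2 at 0.48, Igf2r at 0.48 and Plagl1 at 0.71, with limma adjusted p-values of 0.0115, 0.0419 and 0.0478. Without green-only array A, Peg10 was also called, at 1.07 (limma adjusted p 0.0156), and without red-only array C, Plagl1, at 0.89 (limma adjusted p 0.0227). With the second probe set of genes that have several, Plagl1 was called there at 0.81 (limma adjusted p 0.0213) and Peg3 in double-positive over green-only cells at -0.75 (limma adjusted p 0.0250).

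**Figure D4:**
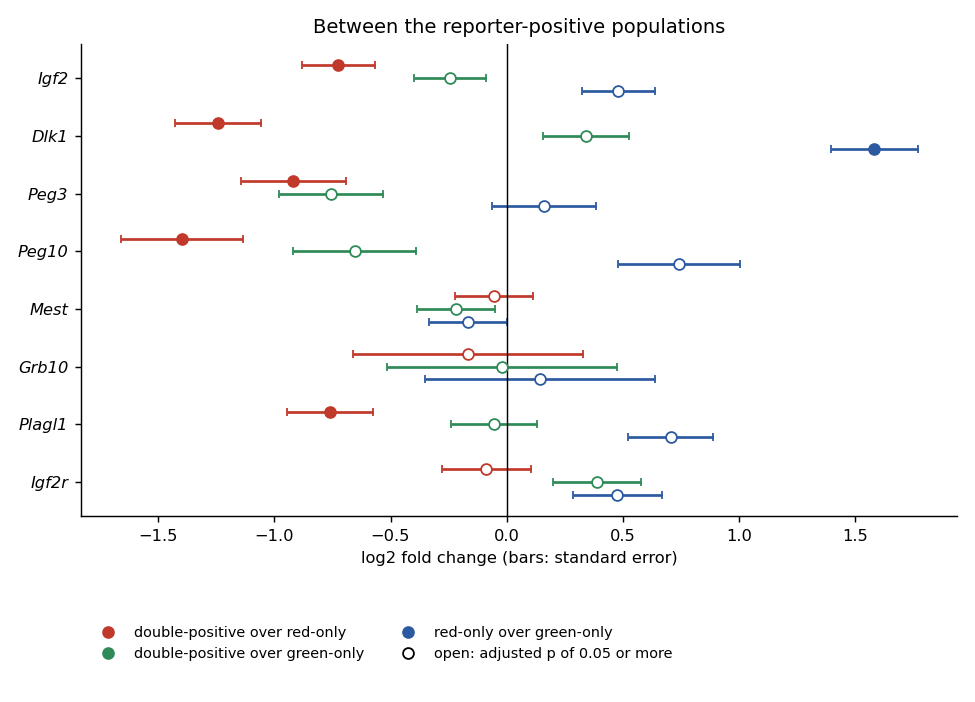
Log2 fold change (horizontal axis) of 8 imprinted genes in double-positive over red-only, double-positive over green-only and red-only over green-only cells, with standard errors as bars and open circles for an adjusted p of 0.05 or more. Filled points are the 5 decreases in double-positive relative to red-only cells and the red-only increase of Dlk1 at 1.58.

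A sum over 6 mesenchyme markers moved with the red-only values: it ran from 119 to 200 units in double-positive, 249 to 722 in red-only cells, 121 to 271 in green-only cells and 101 to 129 in double-negative cells. Col3a1, a fibrillar collagen, had 384, 74.5 and 73.4 units on red-only arrays A, B and C and averaged at most 26.5 in the other populations, and Prrx1 was at or below the array median outside red-only cells. Col1a2 and Twist1 were also highest on average in red-only cells, but Col1a1 was highest in double-positive cells, at 38.9 units against 35.5 in red-only cells, and Postn averaged 5.73 in double-positive, 6.75 in red-only cells, 7.47 in green-only cells and 7.57 units in double-negative cells. Of these 6 markers, 5 were called higher in red-only over double-negative cells, all but Postn, and 3 when any of 7 arrays was left out (double-positive B or C, red-only A or C, or any double-negative array). A sum over 6 endothelial markers was 183 to 264 units in double-positive, 456 to 663 in red-only cells, 263 to 811 in green-only cells and 119 to 214 in double-negative cells. A sum over 7 endoderm markers was 105 to 249 units in double-positive, 103 to 277 in red-only cells, 293 to 1855 in green-only cells and 256 to 995 in double-negative cells. A sum over 7 neural markers, of interest because Nnat is best known from neurons, was 41.9 to 46.1 units in double-positive, 42.3 to 47.0 in red-only cells, 41.7 to 44.9 in green-only cells and 47.3 to 55.9 in double-negative cells, with Neurog2, Dcx and Map2 at or below the array median in every population. Only 3 of 6 trophoblast markers had a probe set, and their sum was at most 27.6 units on any array. The part of other cell types in the values of the imprinted genes was not tested.

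The red reporter went with a different shift in these genes depending on the green one. The interaction term is the effect of red in green-positive cells, double-positive over green-only, minus its effect in green-negative cells, red-only over double-negative. It uses the same double-negative arrays as the comparisons above. A gene that is low in double-negative cells and alike in the reporter-positive populations therefore has a negative term. The term is thus not separate evidence from those comparisons. It was negative and called for 7 of the 8 members, where 10.5% of all genes were called and 5.67% were negative, and its median was -1.82 against 0.03 over all genes. Cell type markers moved with the same term: it was negative and called for 5 of 6 cardiac, 4 of 6 endothelial and 2 of 6 mesenchyme markers, with medians of -1.76, -2.22 and -1.07, and positive and called for 6 of 6 pluripotency and 3 of 5 blood markers, with medians of 2.74 and 3.35. The part of these cell types in the term was not tested. The mesenchyme count was 4 with the experiment as a replicate block, and 1 when any of 8 arrays was left out. Among the members the largest was that of Plagl1, at -2.37 (SE 0.26, limma adjusted p 0.000187), with effects of red of -0.05 in green-positive and 2.31 in green-negative cells. Dlk1 followed at -2.22 (SE 0.26, limma adjusted p 0.000280), with 0.34 in green-positive and 2.56 in green-negative cells. Igf2 stood at -1.95, Peg10 at -1.85, Igf2r at -1.79, Peg3 at -1.40 and Mest at -0.98, with limma adjusted p-values of 0.000213, 0.00701, 0.00125, 0.0137 and 0.0196. The call of Mest was lost without double-negative array B, at a limma adjusted p of 0.0514. Grb10, at -1.05 (limma adjusted p 0.419), passed only with the experiment as a replicate block, at 0.00402.

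The genes whose profiles over the 12 arrays lay closest to a member were named by the root mean square difference of log2 values, each gene centred on its own mean. For Nnat they were Hsd11b2, an enzyme that inactivates glucocorticoids, at 0.35, then Cdh11, a mesenchymal cadherin, at 0.40, Pgf, placental growth factor, at 0.41, Ptn, the growth factor pleiotrophin, at 0.43, and Rai14 at 0.43, against a median of 0.96 over all genes. Hsd11b2 averaged 47.7 ± 5.70 in double-positive, 238 ± 57.2 in red-only cells, 66.4 ± 10.9 in green-only cells and 64.7 ± 9.19 units in double-negative cells (SD, n = 3 each). Cdh11 averaged 6.21 ± 2.25, 51.2 ± 7.80, 6.25 ± 1.34 and 10.2 ± 3.78 units in the double-positive, the red-only, the green-only and the double-negative population. No other member was among the 5 genes closest to Nnat, and the member closest to it was Peg10, at 0.66. For Dlk1 the closest were Col5a2, a fibrillar collagen, at 0.29, Mecom at 0.35 and Rgs5, known as a pericyte marker, at 0.37. For Plagl1 they were Emilin1, an elastic fibre glycoprotein, at 0.28, Col5a2 at 0.32 and Klhl6 at 0.33. For Igf2 they were Col4a1, a basement membrane collagen, at 0.19, Socs3 at 0.19 and Zfpm1 at 0.20, and for Igf2r Prkg1, a cGMP-dependent kinase, at 0.27, Capn6 at 0.27 and Spon1 at 0.30. For Peg10 they were Phlda1 at 0.28, Gulp1 at 0.30 and Rbms1 at 0.32. For Grb10 they were Klf2, Atf3 and Rhob, immediate response genes in many cells, at 0.41, 0.41 and 0.42. Among pairs of members the closest were Peg3 and Peg10, at 0.34, and Igf2 and Plagl1, at 0.36.

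Other imprinted genes did not move as one group. Of 48 such genes listed, 43 had a probe set and 35 were tested. In double-positive over double-negative cells 11 of the 35 rose and 5 fell, in red-only cells 12 rose and 3 fell, and in green-only cells 8 rose and 3 fell. The shares over all genes were the 13.9% and 17.6%, 10.9% and 12.7%, and 9.33% and 11.4% given above. The list's falling counts were near or below those shares, and its rising counts were above them. With 1 array left out the rising counts ranged from 9 to 11, from 10 to 14 and from 5 to 9. With the experiment as a replicate block 14 rose and 5 fell in red-only cells, while the shares above are from the fit without the block. The median log2 fold change was 0.20, 0.15 and 0.15, against -0.01, -0.02 and -0.01 over all genes. Cdkn1c, an inhibitor of cyclin-dependent kinases from the same chromosome 7 region as Igf2, had 1893, 1999 and 2178 units in double-positive, 666, 865 and 1139 in red-only cells, 815, 1084 and 1242 in green-only cells and 127, 133 and 188 in double-negative cells. It was highest in double-positive cells, where none of the 9 members was, and it rose by 3.74, 2.53 and 2.78 on the log2 scale in the double-positive, the red-only and the green-only population over double-negative cells (SE 0.20 each), with limma adjusted p-values of 2.56e-08, 2.56e-06 and 8.57e-07. It was also higher in double-positive than in red-only cells, by 1.21 (limma adjusted p 0.00147), and than in green-only cells, by 0.97 (limma adjusted p 0.0145). Slc38a4, an amino acid transporter, rose by 2.14, 1.52 and 1.53 over double-negative cells in the double-positive, the red-only and the green-only population. Asb4, a neighbour of Peg10, rose by 1.50, 1.75 and 1.63.

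In the opposite direction, Rian, a noncoding RNA of the Dlk1 region, averaged 57.2 ± 9.58 in double-positive, 138 ± 9.56 in red-only cells, 166 ± 88.3 in green-only cells and 249 ± 26.8 units in double-negative cells (SD, n = 3 each). It fell by 2.05 on the log2 scale in double-positive relative to double-negative cells (SE 0.31, limma adjusted p 0.000249), while its neighbour Dlk1 rose in the same comparison by 1.31. Mirg, another noncoding RNA of that region, averaged 42.0 ± 7.86 in double-positive and 85.3 ± 9.66 units in double-negative cells and fell by 0.96 (limma adjusted p 0.00745), and Meg3, at 1103 ± 153 in double-positive and 986 ± 217 units in double-negative cells, was not called. Magel2, a MAGE family gene, fell relative to double-negative cells by 1.10, 0.81 and 0.89 in the double-positive, the red-only and the green-only population (limma adjusted p 5.80e-05, 0.00110 and 0.000610). Gnas, which encodes the stimulatory G protein subunit, rose by 0.93 in red-only over double-negative cells (limma adjusted p 2.88e-05). It was also called higher in double-positive cells, at 0.56 (limma adjusted p 0.000806), and in green-only cells, at 0.39 (limma adjusted p 0.0127), the call in green-only cells being lost without double-negative array B or green-only array C. Its second probe set was called in none of these 3 comparisons. Between reporter-positive populations, 2 rose and 3 fell in double-positive relative to red-only cells, 2 rose and 1 fell relative to green-only cells, and 3 rose in red-only over green-only cells. Of the 35 genes 5, 3 and 3 were thus called, where 12.1%, 5.62% and 3.08% of all genes were. In red-only over green-only cells 1.32% of all genes rose, a share that the 3 rising genes of the list exceed. With the experiment as a replicate block 1282 and 789 of all 13698 genes were called in the last 2 comparisons. The list's totals were then 8, 5 and 5, with no count over all genes given for the first. With 1 array left out they ranged from 1 to 8, from 1 to 3 and from 1 to 5. The first was at most 3 when any red-only array, or array B or C of the double-positive cells, was left out, and 8 without green-only A, the second was 1 without double-positive A or B or green-only A or C, and the third was 1 without red-only A or B and 5 without red-only C.

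**Figure D5:**
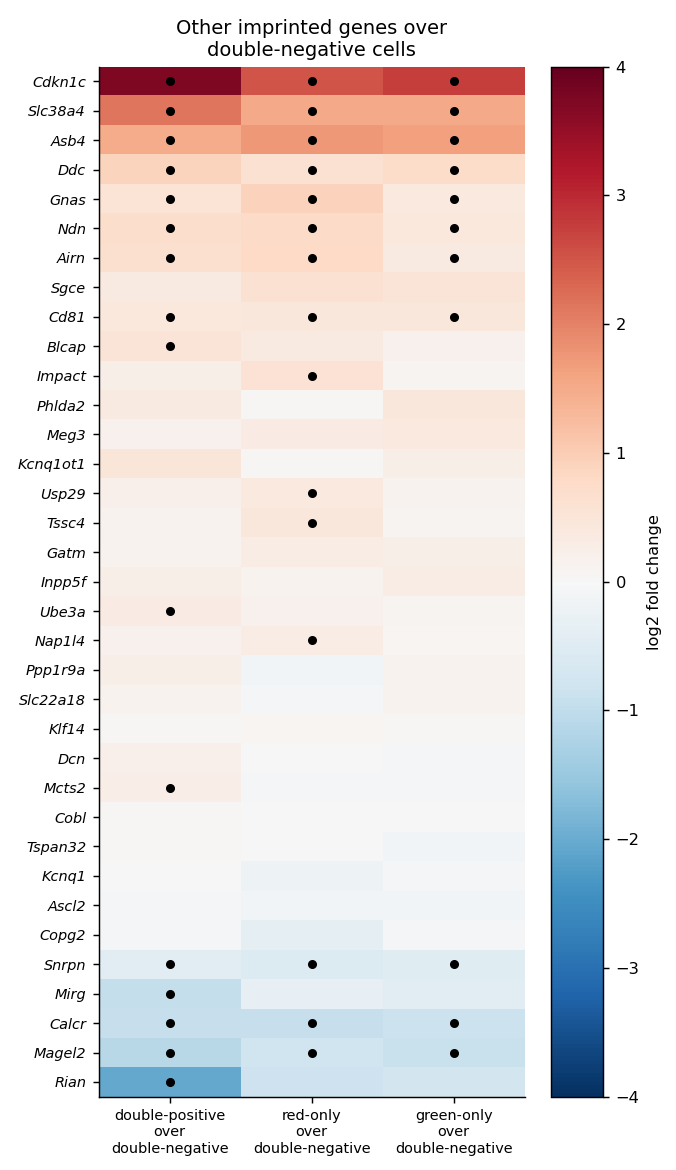
Log2 fold change (colour, from -4 in blue to 4 in red) of 35 other imprinted genes in the double-positive, the red-only and the green-only population over double-negative cells, in rows ordered by the mean of the 3 columns, with a dot for an adjusted p under 0.05. Cdkn1c, Slc38a4 and Asb4 stand at the top and Rian, at -2.05 in double-positive cells, at the bottom.

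Of 17 genes of the insulin-like growth factor pathway, 15 were tested. In double-positive over double-negative cells 6 rose and 2 fell, in red-only cells 3 rose and 1 fell, and in green-only cells 3 rose and 1 fell, where 31.5%, 23.6% and 20.7% of all genes were called, so the red-only and green-only counts were near the background. The green-only total of 4 was 2 when any of 6 arrays was left out (double-positive C, red-only C, green-only B or C, or double-negative B or C), and 6 without green-only array A or with the experiment as a replicate block. The shares above are from the fit to all arrays without the block. Igfbp4, a secreted binding protein of the growth factors, averaged 485 ± 70.0 in double-positive, 920 ± 37.4 in red-only cells, 598 ± 179 in green-only cells and 231 ± 69.8 units in double-negative cells (SD, n = 3 each). It rose over double-negative cells by 1.09, 2.02 and 1.35 on the log2 scale, with limma adjusted p-values of 0.00276, 5.26e-05 and 0.00112. Igfbp2, another binding protein, was highest in double-negative cells, averaging 67.5 ± 34.5 in double-positive, 142 ± 62.5 in red-only cells, 248 ± 198 in green-only cells and 562 ± 62.1 units in double-negative cells. It fell by 3.10 in double-positive cells (limma adjusted p 0.000252) and by 2.04 in red-only cells (limma adjusted p 0.00701). Its fall of 1.44 in green-only cells (limma adjusted p 0.0474) was lost when any of 7 arrays was left out, with adjusted p-values of up to 0.190. Akt1, a kinase downstream of the receptors, rose by 0.86 on the log2 scale in double-positive cells and by 0.69 in green-only cells over double-negative cells, and was 2.01-fold higher in red-only cells. Igf2bp1, which binds the Igf2 messenger RNA, fell by 0.99 in double-positive cells (limma adjusted p 0.00147). Igf1r, the signalling receptor itself, averaged 138 ± 7.91 in double-positive, 144 ± 16.2 in red-only cells, 132 ± 26.3 in green-only cells and 133 ± 20.5 units in double-negative cells and was called in no comparison.

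Of 11 genes listed for the maintenance of imprints, 9 were tested, and all calls against double-negative cells were decreases. In double-positive cells 7 of the 9 fell, in green-only cells 5 and in red-only cells 2, with medians of -0.54, -0.39 and -0.23 on the log2 scale. Of all genes 17.6%, 11.4% and 12.7% fell in these comparisons, which the red-only count hardly exceeds. It was 1 without double-negative array C. With the experiment as a replicate block 5 of the 9 fell in red-only cells and 1 rose, and without green-only array A 3 fell and 1 rose. The shares above are from the fit to all arrays without the block. Uhrf1, which brings the maintenance DNA methyltransferase to replicated DNA, averaged 99.8 ± 11.9 in double-positive, 173 ± 21.9 in red-only cells, 127 ± 3.04 in green-only cells and 216 ± 25.2 units in double-negative cells (SD, n = 3 each). It fell by 1.08 in double-positive (limma adjusted p 1.25e-05) and by 0.74 in green-only cells (limma adjusted p 0.000567). Uhrf1 also fell by 0.77 in double-positive relative to red-only cells (limma adjusted p 0.000768), as did the methyltransferase gene Dnmt1, by 0.37 (limma adjusted p 0.00672). The call of Dnmt1 was lost in the alternative with second probe sets. Dppa3, an oocyte and stem cell factor that shields imprints in the mouse zygote, averaged 8.31 ± 1.21, 7.88 ± 0.984 and 8.24 ± 0.646 units in the double-positive, the red-only and the green-only population and 17.5 ± 5.92 units in double-negative cells, where the pluripotency markers were also higher.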

How the data were processed

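Gene expression was measured in 12 samples on single-colour Affymetrix arrays. The authors deposited 1 linear intensity per probe set and array, made with MAS5 per the submitters' processing notes, with no version given. They were used as deposited, with no further normalization, on the scale log2(intensity + 4.10), where the added constant is the 25th percentile of the table. There is no read depth, and 3 arrays per population limit the precision.

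Of 45101 probe sets, 64 are controls, 34945 list 1 gene, 932 several and 9160 none. Genes were represented by the probe set with the highest mean log2 value, and 13698 were tested after dropping those whose mean fell below the 40th percentile of probe set means. Groups follow the sample titles, because the sort protocol in the labels misprints 1 of the populations. The array's probe sets ending in _a, _s or _x can share probes with related transcripts, which applies to those of Nnat, Grb10, Dlk1 and Plagl1.

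The 6 pairwise comparisons, the interaction and an F-test came from a fit to all 12 arrays with limma 3.58.1 (R 4.3.3), with 1 mean per group (8 residual degrees of freedom). P-values are two-sided apart from the F-test and were adjusted by Benjamini-Hochberg over all genes tested. Standard errors (SE) are those of the model. An exact permutation test of 3 arrays against 3 cannot give a p below 0.10. Python 3.11.15 and matplotlib 3.10.9 drew the figures.

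The experiment letters pair the arrays: all 18 pairs of arrays of one experiment correlated in their deviations from group means, at r of 0.116 to 0.424, and 331 genes differed between experiments. A fit with the experiment as a replicate block is given where it changes the call of a member or strongly moves a count over a gene list. Other alternatives were pseudocounts of 1 and 6.52, a filter at the 60th percentile or none, quantile normalization, an intensity trend with robust variance, the second probe set of genes that have several (the rest keeping their only one), only the arrays compared, and each array left out. The last was extended to the other gene lists after seeing the data.

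The members, gene lists and naming rule were chosen with earlier results of these data known. The rule names every member, of each other list up to 4 genes called per comparison with the largest change, and for members whose populations differ by at least 1 on the log2 scale the 3 closest genes (5 for Nnat). Igf1r, Meg3, Mirg, Blcap, Col3a1, Prrx1 and, in double-positive over double-negative cells, Akt1, and Magel2 and Gnas in some comparisons, were named after their values were seen. For double-positive over double-negative cells, 20 simulations were run with 200 of 13698 genes changed, in which the procedure recovered 63.4% of changes of 0.5, 96.7% of 1, 99.7% of 2 and 99.9% of 3 on the log2 scale, and 4.42% of calls were false. Their noise was independent between arrays, with no experiment effect, and only double-positive arrays were changed. In the data arrays of an experiment correlate and 4317 genes were called, so these rates hold for the simulated setting only.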

Additional observations from a re-analysis of the deposited data

Results flagged for a closer look

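For 7 genes the effect of the red reporter differed between green-positive and green-negative cells, by a limma interaction test adjusted over all genes. As log2 differences (double-positive over green-only, minus red-only over double-negative), these were -2.22 for Dlk1, -1.95 for Igf2, -1.79 for Igf2r, -0.98 for Mest, -1.85 for Peg10, -1.40 for Peg3 and -2.37 for Plagl1. Of all genes tested, 10.5% passed the same test. The term shares its double-negative arrays with the comparisons over double-negative cells and is negative where only those cells are low. The groups of 3 arrays are too small for a test of outlying arrays.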

How the results depend on the processing

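The 29 results called for the 8 tested members in the pairwise comparisons and the interaction were recomputed under the alternatives, which gave 596 values. Of these 588 kept their direction and side of the threshold, and 8, each with 1 array left out, lost the call (Peg3 and Plagl1 in double-positive over red-only cells and Mest in the interaction). Many of these values could not change direction. The filters, the block, the robust variance and the fit to only the arrays compared left the log2 fold change as it was. So did leaving out an array of a population outside a pairwise comparison. Peg10 and Mest have 1 probe set each, so the alternative with second probe sets kept theirs. The F-test over the 4 populations called 7 of the 8, where it called 4429 of all 13698 genes. With the experiment as a replicate block it called all 8, for which no count over all genes is given. Grb10 then passed the F-test at a limma adjusted p of 0.000338, against 0.341 without the block. The F-test call of Peg3 was lost with an intensity trend and robust variance (limma adjusted p 0.0510) and without double-positive array B or C (0.0594 and 0.0558). The 27 results not called gave 565 values, of which 21 passed the threshold and 15 had the other sign. In the paired analysis, with the experiment as a replicate block, the genes called numbered 1282 in double-positive over green-only cells, against 770 without it, and 789 in red-only over green-only cells, against 422. Of the 8 members 1 and 4 were then called there. With the second probe set of genes that have several, and the only one of the rest, 11630 genes were tested. Of these 477, 248 and 919 were called in double-positive over green-only, red-only over green-only and the interaction, with 1 member in the first. With only the arrays compared 258 and 199 genes were called in the first pair. With 1 array left out the genes called ranged from 357 to 775 in double-positive over green-only and from 203 to 474 in red-only over green-only cells, and the members called from 3 to 5 in double-positive over red-only, 0 to 1 in double-positive over green-only and 1 to 2 in red-only over green-only cells. Signs turned for uncalled results with the second probe set, at 0.013 and 0.19 for Grb10 in double-positive over red-only and over green-only cells and -0.055 for Peg3 in red-only over green-only cells. With 1 array left out, uncalled log2 fold changes in double-positive over red-only cells ran from -0.20 to 0.17 for Mest, -0.60 to 0.32 for Grb10 and -0.30 to 0.13 for Igf2r. In double-positive over green-only cells they ran from -0.46 to 0.46 for Grb10 and -0.27 to 0.058 for Plagl1, and in red-only over green-only cells from -0.017 to 0.48 for Peg3 and -0.22 to 0.52 for Grb10.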
